A study of Mus musculus with 15 samples.

Results

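The 9 genes described here encode the subunits of 2 families of ionotropic glutamate receptors in the mouse: Gria1, Gria2, Gria3 and Gria4 for the AMPA receptors, and Grik1, Grik2, Grik3, Grik4 and Grik5 for the kainate receptors. They were taken by name as complete families, and all 9 were among the 26628 genes of the table and among the 15213 that passed the filter on low values. RNA was sequenced from the whole cerebellum (Ce) and striatum (St) of male Hsd:ICR mice, labelled 6 weeks of age, from a line bred to run more on wheels by choice (Hi) and from a non-selected control line (Co). All mice were kept with a running wheel for 7 days before sampling. The groups were 4 CeCo, 4 CeHi, 4 StCo and 3 StHi samples, because a further StHi sample had been excluded by the authors on its principal components. Each condition is 1 breeding line, so an effect of the selection and a chance difference between these lines cannot be told apart. By the study's account the Hi mice also ran more than the Co mice before sampling. An inherited line difference and an effect of the running itself therefore cannot be told apart either. Line names follow the deposited labels throughout. The sources used here do not give the lines the same direction for every gene, so the sign of each line difference below rests on those labels alone.

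AMPA receptors are tetramers of the GluA1 to GluA4 subunits and carry most of the fast excitatory current at synapses. Receptors that hold an edited GluA2 pass little calcium, while those without it are calcium permeable. Kainate receptors are tetramers of GluK1 to GluK5: GluK1, GluK2 and GluK3 form channels by themselves, whereas GluK4 and GluK5 bind kainate with high affinity and need one of the former to form a channel. In the cerebellum, granule cells and Purkinje cells receive glutamate from mossy fibres, parallel fibres and climbing fibres, and Bergmann glia express AMPA receptors that lack GluA2. In the striatum, medium spiny neurons receive glutamate from the cortex and the thalamus.

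All members encode a glutamine in the pore loop, and in Gria2, Grik1 and Grik2 RNA editing can change its codon to one for arginine, the Q/R site. The coding sequence around this codon is shown for these 3 genes and for Gria4, the member with the largest excess in the Ce, because the editing enzymes are among the genes measured below. The codon is in capitals in 30 bases of coding sequence, read 5′ to 3′ from the annotated transcripts of build GRCm38.
Gria2: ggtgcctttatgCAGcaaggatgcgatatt
Gria4: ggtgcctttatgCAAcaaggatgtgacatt
Grik1: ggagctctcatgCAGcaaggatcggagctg
Grik2: ggagctctcatgCAGcaaggttctgagctc
The Gria2 stretch is at chr3:80706896-80706925 on the minus strand, in exon 11 of 16 of its transcript. That of Gria4 is at chr9:4464122-4464151 on the minus strand, in exon 12 of 17, shares 27 of the 30 bases with Gria2 and has the other glutamine codon. Those of Grik1 and Grik2 share 21 and 20 bases with Gria2 and are split by an intron between exons 13 and 14, at chr16:87936105-87940556 and chr10:49240786-49244343, both on the minus strand. Counts per gene do not show how much of the RNA was edited, so editing itself was not measured here.

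The values are fragment counts per gene that the authors divided by a factor for library size and not by gene length, and they are called normalized counts below. The samples held between 32909386 and 47485536 fragments, and the members between 435 and 42013 fragments in a sample. The coefficient of variation of a member within a group was 2.38% to 16.5%, with a median of 8.07%. The labels of the regions were checked against marker genes of each. The summed level of 9 medium spiny neuron genes in each Ce sample was 5.63% to 6.46% of the St mean, and that of 6 granule cell genes in each St sample was 1.78% to 2.55% of the Ce mean. Other lists separated the regions less. The sum of 6 Purkinje cell genes was 231330 to 286351 in the Ce and 44008 to 64798 in the St. That of 5 striatal interneuron genes went the other way, at 21639 to 26313 in the Ce and 13747 to 16076 in the St. Within regions the medium spiny sum ran from 211995 to 292929 normalized counts over the St samples, lowest in StCo replicates 1 and 2 and StHi replicate 0. The sum of 4 choroid plexus genes ran from 942 to 115133 over the Ce samples, low and high in both lines. The part of these sums in the differences below was not tested. In whole tissue, fewer cells of a type and less RNA per cell cannot be told apart.

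The contrast between the Ce and the St asks which subunits each region uses, and it was made within each line. In the control line 8 of the 9 members differed at an adjusted P-value under 0.05 (limma, Benjamini-Hochberg adjustment over 15213 genes), 3 higher in the Ce and 5 higher in the St. Across all genes tested 74.7% differed in this contrast, so the count of members was near the background and the sizes of the differences carry the description. In the selected line 7 of 9 differed, 3 higher in the Ce and 4 in the St, against 70.5% of all genes. A log2 difference over 1 in size was found for 3 of 9 members in each line (Gria4, Grik3 and Grik5), against 25.1% of all genes in the control and 23.2% in the selected line. The median log2 difference (Ce minus St) over the 9 members was −0.54 in the control and −0.14 in the selected line, beside 0.012 over all genes in both. Each median is the value of 1 gene, Grik4 in the control and Grik2 in the selected line, where Grik4 was at −0.12. The 2 medians are therefore not a difference of the family between the lines. Values of the deposited table did not overlap between the regions for 8 members in the control line and 7 in the selected line, against 69.9% and 68.3% of all genes.

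**Figure D1:**
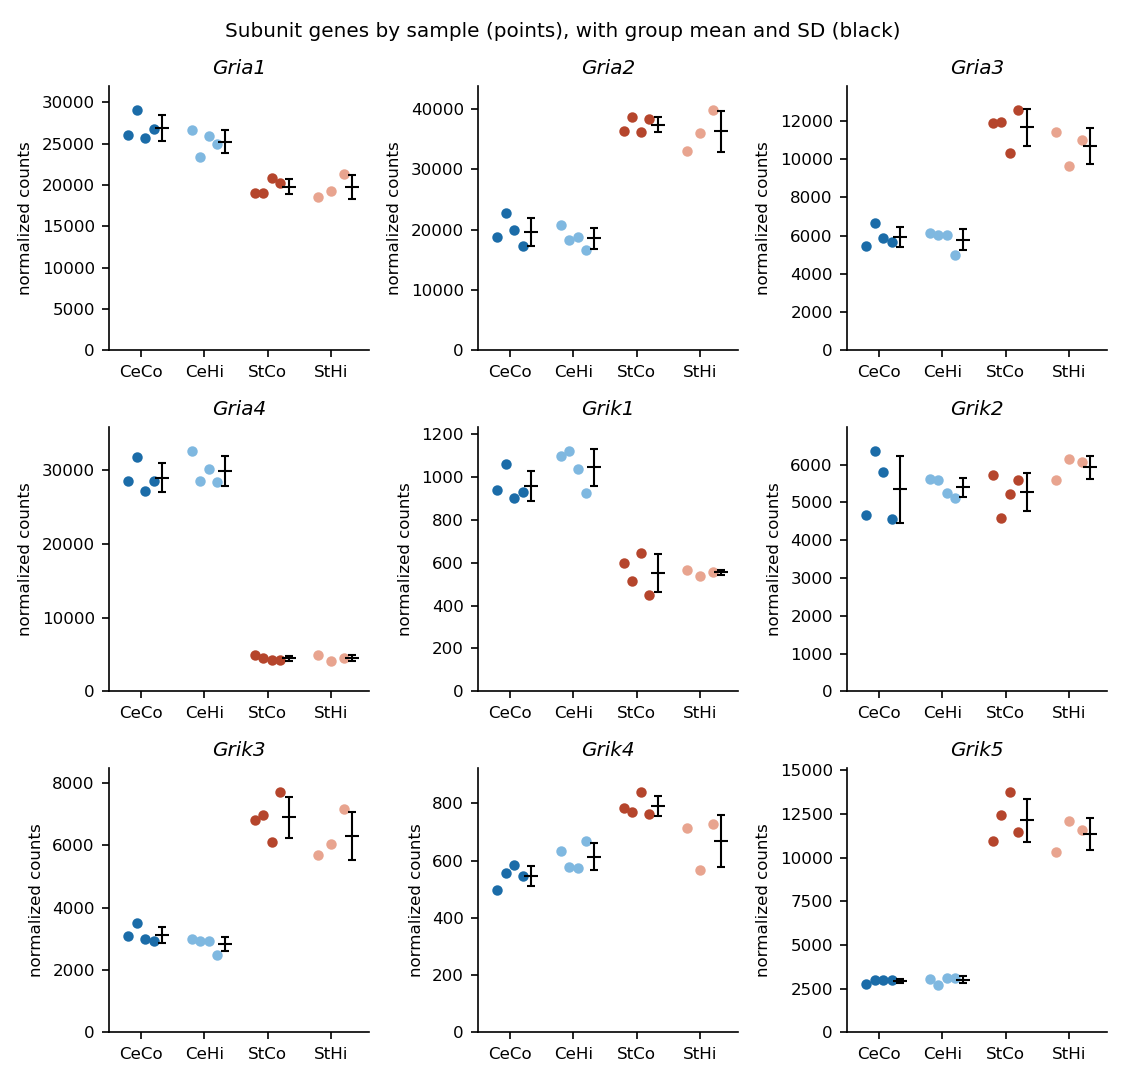
Normalized counts (y axis, from 0) of the 9 subunit genes in each sample of the CeCo, CeHi, StCo and StHi groups (x axis). Points are samples and black bars are the group mean and SD. Gria4 and Grik1 were higher in the Ce, Gria2, Gria3, Grik3 and Grik5 higher in the St, and the regions overlapped for Grik2 in both lines.

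Gria4 encodes GluA4, the subunit with fast kinetics that granule cells and Bergmann glia are known to express, and it had the largest regional difference of the 9. Its normalized counts were 28507, 31778, 27152 and 28582 in CeCo and 32626, 28499, 30216 and 28381 in CeHi, beside 4932, 4561, 4239 and 4281 in StCo and 4996, 4070.0 and 4545 in StHi. Every Ce sample was more than 5-fold above every St sample. The log2 difference (Ce minus St) was 2.68 ± 0.071 (SE, adjusted P-value = 2.5e-15) in the control line and 2.72 ± 0.077 (SE, adjusted P-value = 8.4e-15) in the selected line, which is 6.42-fold with a 95% interval of 5.79 to 7.12 and 6.59-fold with an interval of 5.89 to 7.37. Gria4 lies on chromosome 9 (4417896 to 4796234, minus strand).

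Gria1 encodes GluA1, the subunit whose insertion into synapses is tied to long-term potentiation in the forebrain. It was the other AMPA gene above the St level in the Ce, by a much smaller margin. Its normalized counts were 26059, 29069, 25652 and 26803 in CeCo and 26650.4, 23419, 25929 and 24935 in CeHi, and 19028, 19094, 20849 and 20233 in StCo and 18559, 19314 and 21352 in StHi. The ranges did not meet, the lowest Ce sample being CeHi replicate 1 and the highest St sample StHi replicate 2. On the log2 scale the difference was 0.44 ± 0.059 (SE, adjusted P-value = 3.6e-06) in the control and 0.35 ± 0.064 (SE, adjusted P-value = 1.1e-04) in the selected line. In fold terms it was 1.35 and 1.27.

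Gria2 encodes GluA2, the subunit that sets calcium permeability. Its normalized counts were 18752, 22728, 19917 and 17307 in CeCo and 20790.2, 18269, 18786 and 16552 in CeHi, against 36403, 38662, 36175 and 38406 in StCo and 32985, 36005 and 39816 in StHi. All St samples lay above all Ce samples in both lines. This was a log2 difference of −0.94 ± 0.082 (SE, adjusted P-value = 1.5e-08) in the control and −0.97 ± 0.088 (SE, adjusted P-value = 3.3e-08) in the selected line, or 1.92-fold and 1.96-fold higher in the St.

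Gria3 encodes GluA3, which commonly pairs with GluA2, and lies on the X chromosome (41400854 to 41678601, plus strand). Its normalized counts were 5459, 6653, 5864 and 5672 in CeCo and 6148, 6034, 6014 and 4979.6 in CeHi, against 11867, 11932, 10300.2 and 12567 in StCo and 11437, 9653 and 11014 in StHi. The regions were again apart, and CeHi replicate 3 was the lowest of all samples. The log2 difference was −0.99 ± 0.083 (SE, adjusted P-value = 8.6e-09) in the control and −0.89 ± 0.089 (SE, adjusted P-value = 1.1e-07) in the selected line. Gria3 was thus 1.98-fold and 1.85-fold higher in the St, beside 1.92-fold and 1.96-fold for Gria2. Gria2 and Gria3 were each other's nearest member: after each gene was centred on its mean, their log2 values differed by a root mean square of 0.103 over the 15 samples, which share the split by region.

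Among the kainate subunits that form channels by themselves, Grik1 was higher in the Ce, Grik3 was higher in the St and Grik2 did not pass the test. Grik1 encodes GluK1 and lies on chromosome 16. It had 936, 1060.0, 903 and 929 normalized counts in CeCo and 1097, 1119, 1035 and 926 in CeHi, beside 599, 513, 646 and 449.8 in StCo and 564, 539 and 558 in StHi. On the log2 scale the difference was 0.80 ± 0.096 (SE, adjusted P-value = 8.4e-07) in the control and 0.91 ± 0.10 (SE, adjusted P-value = 5.7e-07) in the selected line, with no overlap between the regions.

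Grik3 encodes GluK3, a subunit of low sensitivity to glutamate. Its normalized counts were 3096, 3493, 3003 and 2920.2 in CeCo and 2983, 2939, 2937 and 2487 in CeHi, against 6806, 6958, 6108 and 7699 in StCo and 5697, 6019 and 7145 in StHi. Every St sample was above every Ce sample. This was a log2 difference of −1.14 ± 0.085 (SE, adjusted P-value = 1.7e-09) in the control and −1.15 ± 0.091 (SE, adjusted P-value = 5.6e-09) in the selected line, or 2.21-fold and 2.22-fold higher in the St.

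Grik2 encodes GluK2, the subunit found in most kainate receptors of the brain. It had 4661, 6359, 5801 and 4554 normalized counts in CeCo and 5621, 5599, 5239.9 and 5121 in CeHi, against 5731, 4593, 5219 and 5584 in StCo and 5588, 6140.4 and 6075 in StHi. The regions overlapped in both lines, and the CeCo group held both the lowest and the highest of all 15 samples, with a coefficient of variation of 16.5%. The log2 difference was 0.0025 ± 0.095 (SE, adjusted P-value = 0.98) in the control line, with a 95% interval of −0.20 to 0.20, and −0.14 ± 0.10 (SE, adjusted P-value = 0.23) in the selected line, with an interval of −0.36 to 0.075. The intervals leave room for a difference of up to 1.15-fold in either direction in the control line and 1.28-fold toward the St in the selected line.

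Of the high-affinity kainate subunits, Grik5 had the second largest regional difference of the 9 members. Grik5 encodes GluK5, which joins GluK2 in many neuronal receptors, and lies on chromosome 7 (25009849 to 25072346, minus strand). Its normalized counts were 2752, 2996, 2998 and 2975 in CeCo and 3042, 2708, 3129 and 3119.7 in CeHi, and 10970.5, 12418, 13746 and 11434 in StCo and 10335, 12117 and 11557 in StHi. The lowest St sample exceeded the highest Ce sample more than 3-fold. On the log2 scale the difference was −2.05 ± 0.072 (SE, adjusted P-value = 8.6e-14) in the control and −1.92 ± 0.078 (SE, adjusted P-value = 7.9e-13) in the selected line, or 4.14-fold and 3.79-fold higher in the St.

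Grik4 encodes GluK4, the other high-affinity subunit, and had the lowest level of the 9 per kilobase of exon in the Ce. It had 499, 558, 583 and 545 normalized counts in CeCo and 784, 770.5, 839 and 762 in StCo, where the regions were apart and the log2 difference was −0.54 ± 0.084 (SE, adjusted P-value = 1.8e-05). In the selected line it had 634, 577, 575 and 669 in CeHi and 715, 565 and 727 in StHi. These overlapped, since StHi replicate 1 had the lowest value of both groups, and the log2 difference was −0.12 ± 0.09 (SE, adjusted P-value = 0.24). Without StHi replicate 1 it was −0.24 with an adjusted P-value of 0.021. That the contrast passed the test in 1 line and not in the other is not a difference between the lines: the interaction is given with the line contrasts.

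**Figure D2:**
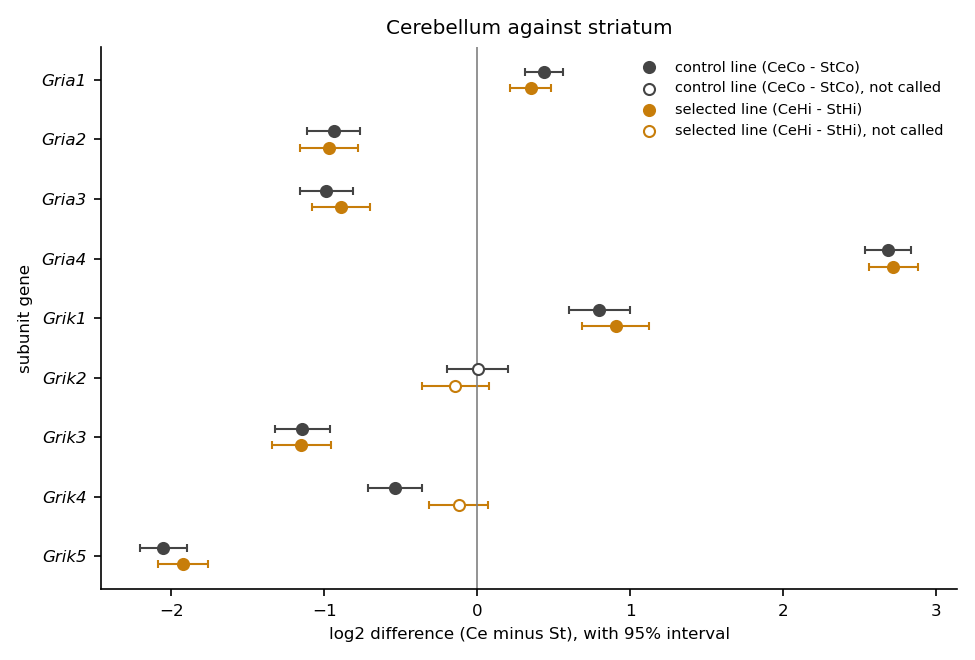
The log2 difference between the regions (x axis, Ce minus St) for each subunit gene (y axis) in the control and the selected line, with 95% intervals from limma and open symbols for an adjusted P-value of 0.05 or more. Gria4 stands alone at 2.68 and 2.72, Grik5 lies at the other end at −2.05 and −1.92, and Grik2 is open in both lines.

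Because the values are not divided by length, subunits were compared with each other per kilobase of annotated exon. The AMPA family as a whole was at 10916 ± 721 normalized counts per kilobase in CeCo and 10707 ± 652 in CeHi, against 7580.5 ± 135 in StCo and 7405 ± 457 in StHi (SD). The kainate family was at 1553 ± 114 in CeCo and 1562 ± 43.5 in CeHi, against 3731 ± 181 in StCo and 3537 ± 240.3 in StHi. The ratio of the AMPA to the kainate sum was therefore 7.04 ± 0.32 in CeCo and 6.85 ± 0.23 in CeHi, against 2.04 ± 0.11 in StCo and 2.097 ± 0.13 in StHi. The AMPA sum was higher in the Ce and the kainate sum higher in the St in both lines, by their means and with no test.

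The make-up of the AMPA family differed mainly in Gria4 and Gria2. Gria4 made up 42.1% ± 0.62 of the AMPA sum in CeCo and 44.3% ± 0.37 in CeHi, but 9.43% ± 0.77 in StCo and 9.74% ± 1.2 in StHi (SD). Gria2 made up 11.6% ± 0.86 in CeCo and 11.2% ± 0.53 in CeHi, against 31.7% ± 0.77 in StCo and 31.5% ± 1.5 in StHi. Gria3 had 5.49% ± 0.22 and 5.49% ± 0.44 in the Ce groups and 15.6% ± 1.1 and 14.7% ± 1.4 in the St groups. Gria1 was a large part of the family in all 4 groups, from 39% ± 1.1 in CeHi to 44.1% ± 0.98 in StHi. These shares come from whole tissue and do not say which subunits share a cell or a receptor.

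In the kainate family Grik5 was the largest part in both regions, at 36.6% ± 2 in CeCo and 37.2% ± 2.5 in CeHi, and 62.9% ± 3.4 in StCo and 62% ± 1.9 in StHi. Grik2 made up 25.9% ± 2.4 and 26.1% ± 1.1 in the Ce groups and 10.7% ± 1.4 and 12.7% ± 0.27 in the St groups, where the family sum was larger. Grik3 made up 22.5% ± 1.1 in CeCo and 20.7% ± 2.6 in StCo. Grik1 made up 9.18% ± 0.49 in CeCo and 2.2% ± 0.33 in StCo, and Grik4 5.91% ± 0.34 and 3.55% ± 0.12. With the longest annotated transcript as the length, some shares changed: Gria1 in StCo went from 43.2% to 34.9% and Gria2 from 31.7% to 35.2%, so the order of these 2 in the St depends on the length used. Grik1 in CeCo went from 9.18% to 13.2%. The contrast of Gria4 between the regions remained, at 40.3% ± 0.73 in CeCo and 8.08% ± 0.64 in StCo.

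**Figure D3:**
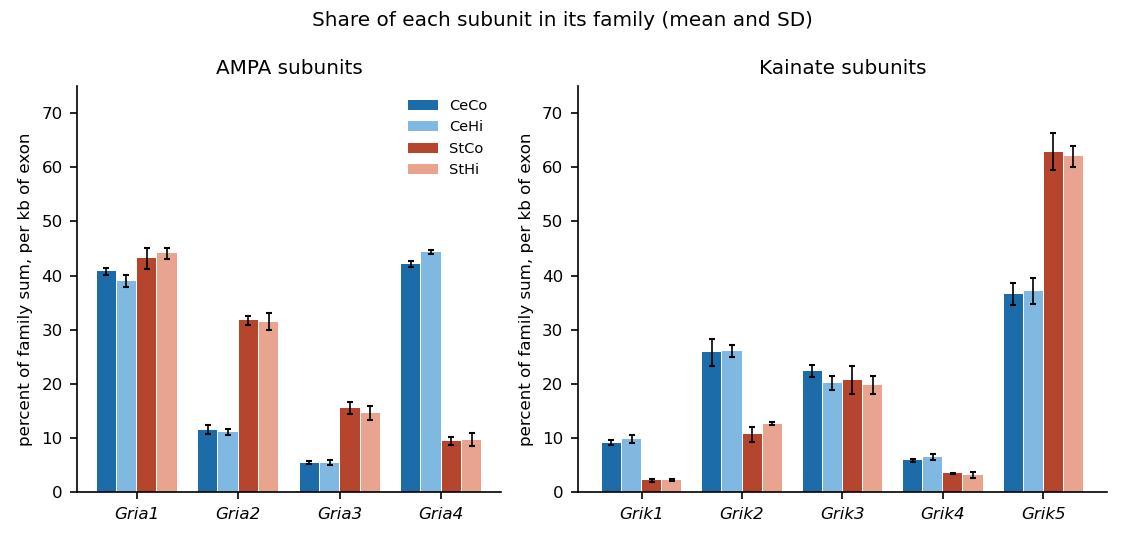
Share of each subunit in the summed normalized counts per kilobase of exon of its family (y axis, percent, from 0), for the AMPA genes (left) and the kainate genes (right). Bars are group means and lines the SD over samples. The Gria4 bars are above 40% in the Ce and near 10% in the St, and the Grik5 bars are above 60% in the St.

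The order of the 9 genes per kilobase of exon in the Ce, over its 8 samples, was Gria4 (4674 ± 300.1), Gria1 (4313 ± 268), Gria2 (1231 ± 127), Gria3 (594 ± 50.5), Grik5 (574 ± 30.2), Grik2 (405 ± 45.4), Grik3 (332 ± 30.6), Grik1 (149 ± 12.9) and Grik4 (97.3 ± 8.8), with SDs. The samples of Gria4 and Gria1, of Gria3 and Grik5, and of Grik2 and Grik3 overlapped, so these neighbours were not separated. In the St, over 7 samples, the order was Gria1 (3272 ± 173), Gria2 (2375 ± 146), Grik5 (2283 ± 213), Gria3 (1141 ± 102), Grik3 (739 ± 79.6), Gria4 (717 ± 55.6), Grik2 (419.9 ± 40.0), Grik4 (124 ± 14.4) and Grik1 (82.2 ± 9.3). There Gria2 and Grik5, Grik3 and Gria4, and Grik4 and Grik1 overlapped. Grik5, the fifth in the Ce, thus stood beside Gria2 in the St, and Gria4 went from the first place to the sixth. The exact places depend on the transcript length assigned: with the longest transcript, the samples of Gria3 and Grik5 no longer overlapped in the Ce, and those of Gria1 and Gria2 overlapped in the St.

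The contrast between the lines asks whether breeding for running went with a change in these receptors. In the cerebellum 0 of 9 members passed the test (limma), against 5.94% of all genes, and 0 of 9 had an unadjusted P-value under 0.05, against 19.7% of all genes. The quasi-likelihood test of edgeR and DESeq2 on recovered fragments also called 0 of 9. The line groups overlapped for all 9 members in the Ce, beside 13.3% of all genes without overlap. Among the AMPA genes the log2 differences (CeCo minus CeHi) were 0.098 for Gria1 (95% interval −0.027 to 0.22), 0.084 for Gria2 (−0.089 to 0.26), 0.036 for Gria3 (−0.14 to 0.21) and −0.04 for Gria4 (−0.19 to 0.11). Among the kainate genes they were −0.12 for Grik1 (−0.32 to 0.083), −0.022 for Grik2 (−0.22 to 0.18), 0.15 for Grik3 (−0.032 to 0.33), −0.16 for Grik4 (−0.34 to 0.015) and −0.027 for Grik5 (−0.18 to 0.13). Their adjusted P-values ran from 0.30 for Grik4 to 0.93 for Grik2. The intervals reach at most 1.26-fold, for Grik4, so larger line differences in the Ce lie outside them.

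In the striatum 0 of 9 members passed the test by limma, edgeR or DESeq2, against 2.66% of all genes by limma. At an unadjusted P-value under 0.05 it was 1 of 9, Grik4, against 14.1% of all genes. Grik4 was 784, 770.5, 839 and 762 in StCo and 715, 565 and 727 in StHi, with all StCo samples above all StHi samples. Its log2 difference (StCo minus StHi) was 0.25 (95% interval 0.061 to 0.44, unadjusted P-value = 0.013, adjusted P-value = 0.18). Without StHi replicate 1 the log2 difference of Grik4 was 0.14 with an adjusted P-value of 0.64, and 0 of 9 members had an unadjusted P-value under 0.05. It was the 1 member of 9 whose groups did not overlap, against 13.1% of all genes, which is near the background. In the same samples the summed level of 5 oligodendrocyte genes was 184858 to 269931 normalized counts in StCo and 283034 to 322892 in StHi, and that of 3 oligodendrocyte precursor genes 7217 to 8445 and 9124 to 9374. That of 5 cortical excitatory neuron genes was 32951 to 49009 in StCo and 37323, 17310 and 27800 in StHi replicates 0, 1 and 2, and replicate 1 was lowest in both this sum and Grik4. No gene on these lists passed between the lines in the St, and their part in the Grik4 values was not tested.

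The other members were closer to equal between the lines in the St. The log2 differences were 0.012 for Gria1 (−0.12 to 0.15), 0.054 for Gria2 (−0.13 to 0.24), 0.13 for Gria3 (−0.058 to 0.32) and −0.0027 for Gria4 (−0.16 to 0.16). They were −0.013 for Grik1 (−0.23 to 0.21), −0.17 for Grik2 (−0.38 to 0.051), 0.14 for Grik3 (−0.053 to 0.33) and 0.10 for Grik5 (−0.062 to 0.27). The farthest bound of these 8 intervals was that of Grik2, at 1.30-fold.

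The interaction, (CeCo minus CeHi) minus (StCo minus StHi), tests whether the line difference depends on the region and, equally, whether the regional difference depends on the line. It passed for 0 of 9 members by limma, edgeR and DESeq2, against 0.532% of all genes by limma, and for 1 of 9 at an unadjusted P-value under 0.05, against 9.56%. That member was Grik4, whose line difference of −0.16 in the Ce and of 0.25 in the St gave an interaction of −0.41 (95% interval −0.67 to −0.15, unadjusted P-value = 0.0039, adjusted P-value = 0.18). Grik4 in CeCo was below CeHi in mean and in StCo above StHi. Single samples weigh on both sides: StHi replicate 1 was at 565, beside 715 and 727. CeHi replicate 3 was the highest of its group, at 669 beside 575 to 634. The remaining 8 members had adjusted P-values for the interaction from 0.80, for Grik5, upward.

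**Figure D4:**
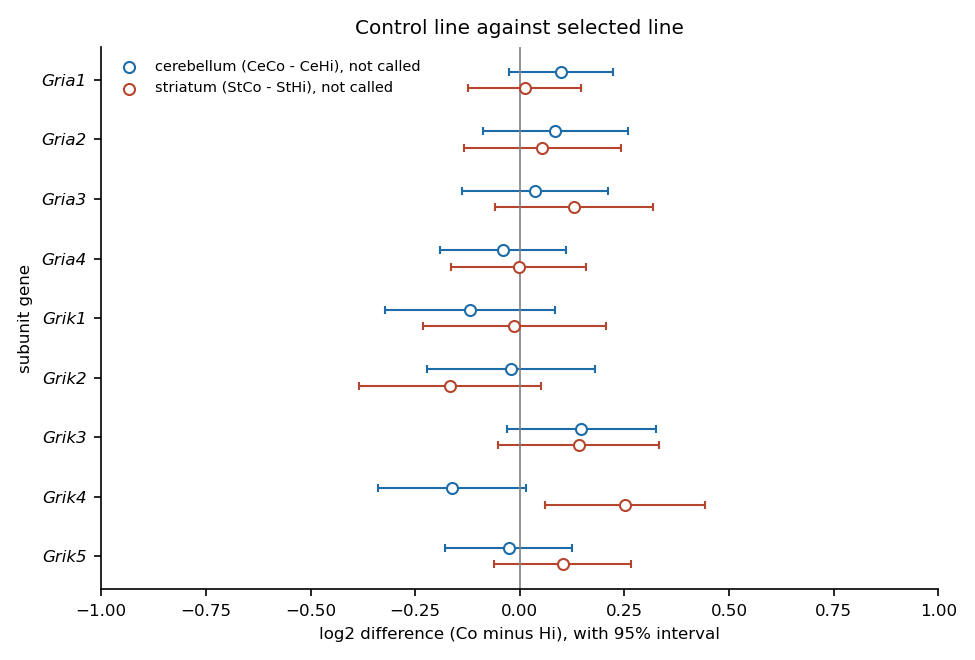
The log2 difference between the lines (x axis, Co minus Hi) for each subunit gene (y axis) in the Ce and the St, with 95% intervals from limma. All symbols are open because no adjusted P-value was under 0.05, and the 1 interval that leaves out 0 is that of Grik4 in the St, 0.061 to 0.44.

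The shares within each family were also set side by side between the lines. In the Ce, Gria4 made up 41.3% to 42.7% of the AMPA sum in the CeCo samples and 43.96% to 44.8% in the CeHi samples, which do not overlap, while Gria1 made up 40.1% to 41.6% and 38.1% to 40.5%, which do. With the longest transcript as the length the Gria4 shares were 40.3% ± 0.73 and 42.4% ± 0.33. This was singled out after the values were seen and is given with no test. In the St the Gria4 shares overlapped, at 8.74% to 10.5% in StCo and 9.05% to 11.1% in StHi. The Grik2 share of the kainate sum in the St did not, at 9.30% to 12.2% in StCo and 12.4% to 12.9% in StHi. With the longest transcript it was 10.6% to 13.9% and 14.1% to 14.6%. The Grik2 share, too, was singled out after the values were seen and was not tested.

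The genes most like each member were found by the smallest root mean square difference of centred log2 values over the 15 samples, a measure that region dominates. For Gria4 they were Plcb4 (0.0935), Appl2 (0.102) and Rnf182 (0.106), and for Grik5 they were Celf3 (0.0848), Dos (0.0981) and Hmgb3 (0.105). Gria2 was nearest to Syn3 (0.0721), Mtap9 (0.0722) and Plxnc1 (0.0968), and the genes near Gria3 included Cacna2d1 (0.0838) and Wdr47 (0.0883). Gria1 was nearest to Hnrnpf (0.053), Cpsf7 (0.058) and Dbr1 (0.06), genes with a difference between the regions as modest as its own. Among the kainate genes, the genes near Grik3 included A830010M20Rik (0.0824) and Nr3c2 (0.0896). Grik1 was nearest to Gatad2a (0.0967), Sirt1 (0.104) and Cdan1 (0.106), Grik2 to Mex3c (0.0866), Mxd1 (0.0967) and Sbds (0.0979), and Grik4 to Syp, Atp6v1e1 (both 0.106) and Yaf2 (0.108). Between members, Grik3 was nearest to Gria2 (0.126), while Gria4 had no close member, the nearest being Grik1 at 0.931.

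Receptor subunits work with auxiliary proteins, scaffolds and editing enzymes, and 38 of a list of 39 such genes were in the table and tested. Of these, 35 differed between the regions in the control line, 12 higher in the Ce and 23 in the St, against backgrounds of 37.8% and 36.9% of all genes in the 2 directions. In the selected line it was 34, of which 12 were higher in the Ce and 22 in the St, against 35.4% and 35.1%. The median log2 difference of the list was −0.55 in the control and −0.53 in the selected line, beside 0.012 over all genes.

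All 6 transmembrane AMPA receptor regulatory proteins (TARPs) passed in the control line and 5 of 6 in the selected line, against 74.7% and 70.5% of all genes. Several TARPs carry receptors to the surface and slow their closing. The call of Cacng5 in the control line was lost under 12 of 28 alternatives. Cacng2, or stargazin, the TARP that granule cells need for surface AMPA receptors, was higher in the Ce at a log2 difference of 0.83 ± 0.092 (SE, adjusted P-value = 3.7e-07), and Cacng7 at 0.87 ± 0.073 (SE, adjusted P-value = 9.3e-09), both in the control line. Cacng3 and Cacng8, which are known from the forebrain, were higher in the St at −4.22 ± 0.094 (SE, adjusted P-value = 3.4e-16) and −2.91 ± 0.10 (SE, adjusted P-value = 1.2e-13). Cacng5 had the smallest difference, 0.25 ± 0.11 (SE, adjusted P-value = 0.043) in the control line and 0.26 ± 0.11 (SE, adjusted P-value = 0.054) in the selected line.

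Of 17 other AMPA receptor partners and assembly factors, 16 passed in the control line, against 74.7% of all genes, and 7 of these were higher in the Ce. The other 9 were higher in the St. Differences were largest for Nptx2, a secreted pentraxin that gathers AMPA receptors at synapses, at −5.51 ± 0.19 (SE, adjusted P-value = 1.4e-13), and the auxiliary subunit Cnih3 at −5.27 ± 0.42 (SE, adjusted P-value = 9.2e-08), both higher in the St. In the Ce, Cnih3 was 41.9 to 72.2 normalized counts in CeCo but 289 in CeHi replicate 3, beside 52.7 to 70.6 in the other CeHi samples, and its difference in the selected line was −4.14 with that sample and −4.71 without it. The smallest differences that passed were those of Prrt1, at 0.33 ± 0.085 (SE, adjusted P-value = 0.0024), and Cpt1c, at −0.43 ± 0.064 (SE, adjusted P-value = 1.3e-05), in the control line. Shisa6, an auxiliary subunit singled out after its values were seen, was the partner with the largest excess in the Ce, at 2.91 ± 0.11 (SE, adjusted P-value = 9.3e-13).

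Of the 4 kainate receptor partners, 3 passed in each line, all higher in the St, which is near the 74.7% and 70.5% of all genes that passed. Neto1, an auxiliary subunit of kainate receptors, was at 96, 82.9, 106 and 91.7 normalized counts in CeCo and 6458, 6251, 5582 and 7168 in StCo, and its log2 difference was −6.07 ± 0.13 (SE, adjusted P-value = 6.0e-16). The secreted proteins C1ql2 and C1ql3, which bind kainate receptors at some synapses, were at −2.60 ± 0.26 (SE, adjusted P-value = 9.8e-08) and −1.64 ± 0.17 (SE, adjusted P-value = 4.3e-07). Neto2, the other auxiliary subunit of the pair, was at 0.12 ± 0.14 (SE, adjusted P-value = 0.48) in the control line and −0.21 ± 0.16 (SE, adjusted P-value = 0.24) in the selected line and did not pass in either.

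Among 8 scaffold and trafficking genes 7 passed in the control line, all higher in the St. Of all genes, 74.7% passed there and 36.9% passed with the St higher. Arc, an activity-induced gene whose product removes AMPA receptors from the surface, was at −3.09 ± 0.18 (SE, adjusted P-value = 1.3e-09), and Grip1, a scaffold that binds the GluA2 and GluA3 tails, at −2.21 ± 0.089 (SE, adjusted P-value = 4.8e-13). The smallest differences were those of Dlg1, at −0.42 ± 0.064 (SE, adjusted P-value = 1.4e-05), and Gripap1, at −0.47 ± 0.054 (SE, adjusted P-value = 5.3e-07). Pick1, which also binds the GluA2 and GluA3 tails, was the 1 that did not pass, at 0.096 ± 0.052 (SE, adjusted P-value = 0.1), and it was 0.18 ± 0.056 (SE, adjusted P-value = 0.01) in the selected line.

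All 3 genes of the editing family differed in both lines, against 74.7% of all genes in the control and 70.5% in the selected line. Adarb1, the enzyme that edits the Q/R site of Gria2, was at 17856, 17291, 16562 and 17159.8 normalized counts in CeCo and 10587, 11218, 10249.8 and 9392 in StCo, a log2 difference of 0.73 ± 0.064 (SE, adjusted P-value = 1.7e-08). Gria2 itself differed in the opposite direction, as given above. Adarb2, a brain-restricted relative for which no editing activity is known, was at 0.71 ± 0.11 (SE, adjusted P-value = 1.1e-05), and Adar was higher in the St at −0.45 ± 0.049 (SE, adjusted P-value = 2.4e-07).

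**Figure D5:**
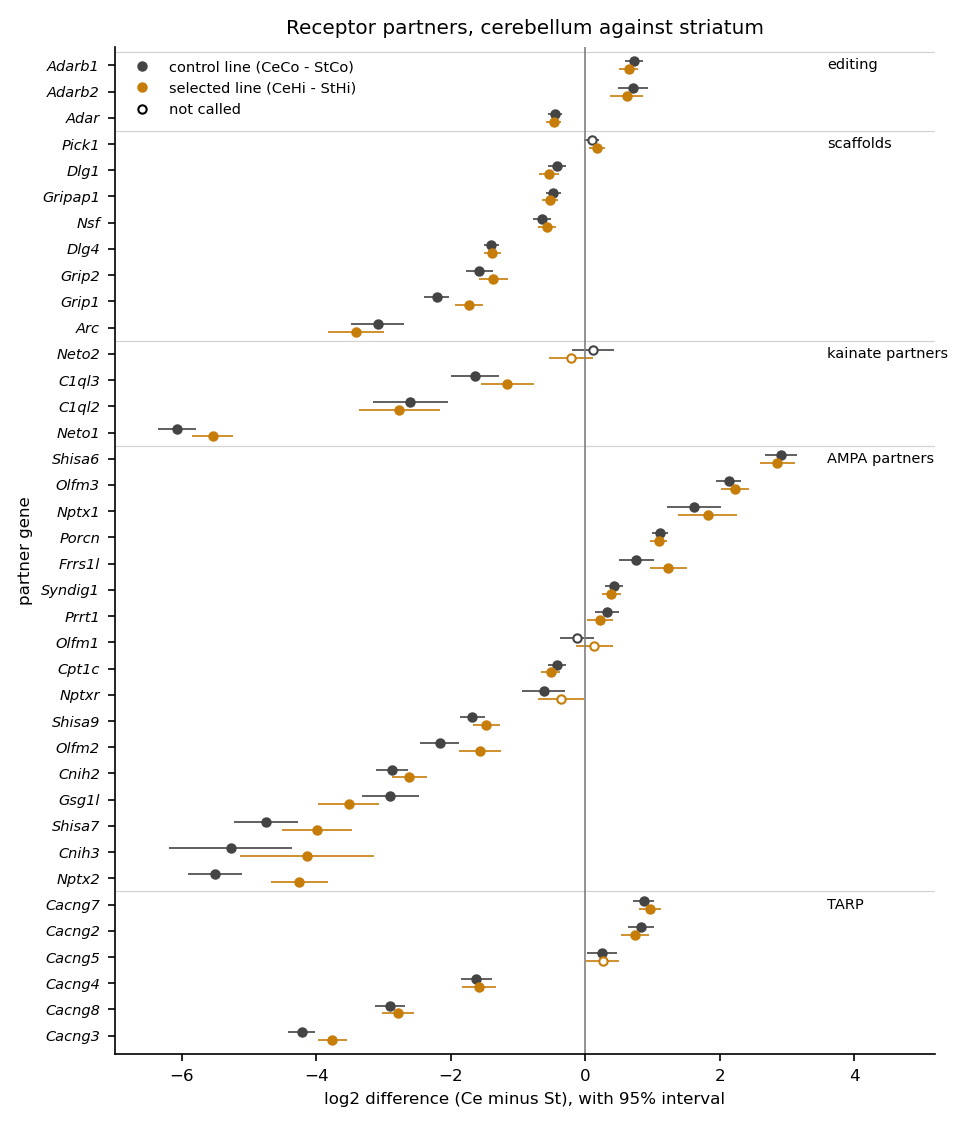
The log2 difference between the regions (x axis, Ce minus St) of 38 partner genes (y axis), by group, in the control line (grey) and the selected line (orange), with 95% intervals from limma and open symbols where the adjusted P-value was 0.05 or more. Neto1, Nptx2 and Cnih3 lie farthest toward the St and Shisa6 farthest toward the Ce.

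Between the lines, 2 of the 38 partners passed in the Ce, against 5.94% of all genes, and both were higher in the samples labelled selected. Nptx2 was 36.3, 35.7, 36.7 and 51.7 normalized counts in CeCo and 77.4, 96, 85.2 and 150.1 in CeHi, all CeHi samples being above all CeCo samples. The log2 difference (CeCo minus CeHi) was −1.29 ± 0.19 (SE, adjusted P-value = 3.7e-04), or 2.45-fold, and without CeHi replicate 3 it was −1.09. Cacng3 was 203, 219, 247 and 196 in CeCo and 256, 283, 295 and 313 in CeHi, also without overlap, with a log2 difference of −0.40 ± 0.094 (SE, adjusted P-value = 0.016) that had an adjusted P-value of 0.051 without CeCo replicate 3. Both genes were at low levels in the Ce compared with the St, where Nptx2 was 1425 to 2146 normalized counts over the 7 samples and Cacng3 3424 to 4469. The medium spiny sum in the Ce was 14466 to 15089 in CeCo and 14916 to 16602 in CeHi, lowest of CeHi in replicate 3. That sample was the highest of CeHi for both genes, Cnih3, Neto1, Shisa7 (1008, beside 380 to 687) and Cnih2 (2109, beside 1327 to 1602). Of the other members and partners higher in the St in the control line, it was also the highest for Grik4, Olfm2, Grip2, Gsg1l and Dlg4. Olfm2 was 721 there, beside 479 to 538, and Grip2 540, beside 425 to 464. It was not the highest for Gria2, Gria3, Grik3, Grik5, Cacng4, Cacng8, Shisa9, Cpt1c, Nptxr, C1ql2 or C1ql3. Nor was it for Dlg1, Grip1, Nsf, Gripap1, Arc or Adar. The sample and these genes were singled out after the values were seen. In CeHi replicate 3 the cortical excitatory neuron sum was 27960, beside 24353 to 24923 in the other CeHi samples and 25444 to 30633 in CeCo. The part of these sums in the differences was not tested.

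In the St 0 of the 38 partners passed by limma, against 2.66% of all genes, and 6 had an unadjusted P-value under 0.05, against 14.1%. For Nptx2 the difference in the St was −0.037 and the interaction −1.25 ± 0.27 (SE, adjusted P-value = 0.055). For Cacng3 they were 0.055 and −0.46 ± 0.14 (SE, adjusted P-value = 0.2). Neither interaction passed, and none of the 38 did by limma, while 8 had an unadjusted P-value under 0.05, against 9.56% of all genes.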

How the data were processed

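The authors aligned paired-end reads to GRCm38 with TopHat2 and normalized fragment counts per gene for library size with Cuffnorm 2.2.1, per the labels and the study's methods. The deposited values are a gene-level signal: counts divided by 1 factor per sample. They are not divided by gene length, whatever the name of the table implies. Checked on the values, 99.6% to 99.8% of low values were whole multiples of the value of 1 fragment (0.841 to 1.30), from which fragments were recovered. All 15 sample columns were used.

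Genes with a CPM (counts scaled to a common total) of at least 1 in 3 samples were kept (15213 of 26628) and scaled by trimmed mean of M-values. The factors were 0.933 to 1.05. Multiplied by the sample totals they were 0.993 to 1.01 of their geometric mean. Scaled values were tested as log2(value + 1) with limma 3.58.1 (R 4.3.3), with trend and robust moderation, 4 group means and Benjamini-Hochberg adjustment. Differences are on this log2 scale. The study's edgeR test (4.0.16) and DESeq2 1.42.0 were alternatives, on recovered fragments, because the deposited values are not counts. On simulated data for the line contrast in the Ce (14857 genes), 84% of genes with a log2 change of 0.5, 75.5% of those with −0.5 and 100% of those with 1 were called. The simulation gave all genes the same relative spread between samples and changed CeCo only. These shares may thus be too high for genes that vary more, and they do not cover the St or the interaction. Labels give replicate numbers 0 to 3. In the control line, residuals of same-numbered Ce and St samples correlated at 0.17 to 0.28 in 4 of 4 pairs, so the numbers may pair the regions there. Same-numbered St samples of different lines reached 0.20. The tests printed above used group means without pairing. A replicate block, as an alternative, tied same-numbered samples across both lines and changed no call of a member. A block within each line, with an estimated correlation of 0.022, changed none either.

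The members, the 39 partner genes (AMPA and kainate auxiliary subunits, assembly factors, scaffolds and editing genes) and the marker lists were chosen with earlier results of these data known. All members are named. Partners are named if called between the lines or in the interaction. They are also named if among the 2 largest or 2 smallest called regional differences of their group in either line. Neto2, Shisa6, Shisa7, Cnih2 and some genes listed for CeHi replicate 3 are named outside this rule. The 3 genes most like each member are named. Of these genes, 1 each for Gria3 and Grik3 is not reported here. Frrs1l and Syndig1 were found under older symbols. Lengths, positions and coding sequence came from the GRCm38 annotation. Counting strand is not given in the sources used here. Annotated genes that overlap Gria2, Gria3, Gria4, Grik2, Grik3 and Grik4 are small RNAs, unconfirmed or intronic transcripts and a pseudogene on the same strand. Gene totals and shares carry counting error as well as the replicate spread.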

Additional observations from a re-analysis of the deposited data

Results flagged for a closer look

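In groups of 4 samples, 27 in all, the gap of the lowest or highest sample to its nearest neighbour was set against the range of the group, with a limit of 0.829. Chance flags about 1 group in 20, and 3 of 27 passed. Gria3 in CeHi replicate 3 was 4979.6 normalized counts, beside 6014 to 6148 in the other CeHi samples, a gap of 0.886 of the range. Grik3 was lowest in the same sample, 2487 beside 2937 to 2983, a gap of 0.908. Grik5 in CeCo replicate 0 was 2752, beside 2975 to 2998, a gap of 0.903. The regional differences of Gria3, Grik3 and Grik5 passed the test without these samples as well.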

How the results depend on the processing

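Over 28 alternatives for each contrast (27 for the interaction), which changed the pseudocount, the filter, the scaling, the moderation, the test, the samples in the fit and the replicate number, and left out each of the 15 samples in turn, the count of members called was 8 for the regions in the control line and 0 for each line contrast and the interaction. For the regions in the selected line it was 7, and 7 to 8 with a sample left out, 8 being without StHi replicate 1, when Grik4 passed. The 15 regional calls of members kept their direction and passed under every alternative run. The replicate block gave 8, 7, 0, 0 and 0 members in the 5 tests and changed no call of a member. Same-numbered Ce and St samples of the selected line had residuals that correlated at −0.075 to 0.051 in 3 pairs, and between the lines the range was −0.22 to 0.18 in the Ce and −0.043 to 0.20 in the St, so there the samples share only a number. With the block 948 genes were called between the lines in the Ce, 374 in the St and 73 for the interaction.

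The values that changed sign were all differences that had not passed. With a sample left out, Gria1 between the lines in the St ranged from −0.031 to 0.068, Gria2 there from −0.012 to 0.12, Gria4 from −0.078 to 0.0698 and Grik1 from −0.092 to 0.079. In the Ce, Gria3 ranged from −0.037 to 0.069 and Grik2 from −0.11 to 0.046. The interaction ranged from −0.038 to 0.096 for Gria2, −0.11 to 0.038 for Gria4 and −0.088 to 0.074 for Grik3, and the regional difference of Grik2 in the control line from −0.0801 to 0.078. With sample quality weights, Gria1 in the St was −0.043, Gria4 there 0.021, Gria3 in the Ce −0.0197 and Grik2 between the regions −0.0011. With the replicate block, the interaction was −0.0027 for Gria2 and −0.0055 for Grik3, and the line difference in the St was 0.015 for Gria4 and 0.041 for Grik1. Grik2 between the regions was −0.0059 under a filter of 5 CPM and −0.0047 with median-of-ratios scaling.

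The counts over all genes moved with the settings. Those of the members were 0 of 9 in the line tests and the interaction and could not fall, so the 2 cannot be compared for stability. Genes called between the lines were 903 in the Ce and 1390 by DESeq2. In the St they were 405, beside 711 by DESeq2 and 740.0 with sample quality weights. For the interaction they were 81, beside 182 with sample quality weights, 277 by DESeq2, 49 without CeCo replicate 0, 53 without CeHi replicate 2, 42 without StHi replicate 1 and 50 without StHi replicate 2. The cause was not tested. Among the partners, Cacng5 lost its call between the regions under 12 alternatives in the control line and Prrt1 under 9 in the selected line, the replicate block among the latter.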
